A study of Mus musculus with 4 samples.

Results

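The genes described here encode the proteins of the cytosolic ribosome. They were taken by symbol from the deposited UMI tables of all 4 plates: *Rps* or *Rpl* followed by a number with an optional a, l, x or y ending, plus *Rpsa*, *Rplp0*, *Rplp1* and *Rplp2*, without pseudogenes ending in -ps and without the S6 kinases. The rule found 78 of 16408 nuclear genes listed, 31 of the small subunit (40S) and 47 of the large subunit (60S), and 73 of them were listed for every plate. The cells were CD31+ CD45- TO-PRO-3- aortic cells sorted singly into 1 plate of 384 wells per mouse and sequenced by SORT-seq, a plate method that counts the 3′ end of each mRNA molecule once by its unique molecular identifier (UMI). There were 2 mice labelled *Epas1* EC-KO (Epas1fl/fl, Cdh5Cre/+) and 2 littermates labelled *Epas1* EC-WT (Epas1fl/fl, Cdh5+/+). In the study's methods the Cre is the inducible CreERT2 under the *Cdh5* (VE-cadherin) promoter, which is active in endothelial cells, tamoxifen was given to both groups at the age of 6 weeks, and the aortas were taken 2 weeks after it. Each value is thus 1 plate of 1 mouse, and mouse, plate and library cannot be told apart. By the file names, EC-KO 2 and EC-WT 1 shared a flow cell, while each other mouse had one of its own.

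Ribosomal proteins surround the catalytic RNA of the ribosome. Small subunit proteins help to bind and decode the mRNA, and large subunit proteins line the peptide exit tunnel and form the stalk that recruits elongation factors. Their mRNAs are among the most abundant of any cell and begin, just downstream of the start site, with a run of pyrimidines (the 5′ terminal oligopyrimidine or TOP tract) through which mTOR signalling sets their translation.

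Wells were kept as cells with at least 1000 UMIs outside the ERCC spike-ins and the mitochondrial genome ("nuclear UMIs") and at most 25% of non-ERCC UMIs on mitochondrial rows. This left 157, 98, 114 and 72 cells of EC-KO 1, EC-KO 2, EC-WT 1 and EC-WT 2 (441 of 1536 wells), an order of mice used for all values below, with 1088901, 851118, 648977 and 566088 nuclear UMIs. Kept cells were more numerous in EC-KO (255) than in EC-WT (186), whereas the study's methods count more cells from EC-WT, so that the groups are named only as the deposited labels name them. *Epas1* itself stood at 2930, 3148, 3324 and 2351 counts per 1000000 nuclear UMIs (CPM), so that the groups overlapped. The deleted part of the gene is not given in the sources used here, and counts of 3′ ends need not fall in it, so that these values could not be used to check the labels. All 14 endothelial markers were detected in each mouse (13406 to 16700 CPM summed), and the immune list was near 0 (7.07 to 14.1 CPM, 4 of 10 genes at 0). The 11 smooth muscle markers, none at 0, summed to 4890 and 6791 CPM in EC-KO and to 974 and 1313 CPM in EC-WT, and the 8 fibroblast markers to 3142 and 1580 against 753 and 1297 CPM. Only 21 kept cells had at least 1% of UMIs on the smooth muscle list (11, 5, 3 and 2). The same 384 well barcodes served all plates, and 18 well positions held a kept cell in all 4 mice.

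The ribosomal protein genes held 64854, 48342, 45430 and 34826 UMIs, or 5.96%, 5.68%, 7.0% and 6.15% of nuclear UMIs (6.20 ± 0.57%, SD, n = 4 mice). The widest 95% Wilson interval, which covers counting error only and not the variation between mice, plates or libraries, extended 0.063 percentage points on either side. EC-WT 1 had the highest share. The 40S genes held 2.49%, 2.38%, 3.01% and 2.63% and the 60S genes 3.46%, 3.30%, 3.99% and 3.52%, so that 60S UMIs exceeded 40S UMIs 1.39, 1.39, 1.32 and 1.34 times. Single cells ranged from 1.1% to 14.6%. The SD over the cells of a mouse was 1.93 to 2.39 percentage points, against 0.34 to 0.50 points that counting alone gives at the cells' depth.

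Of the 78 genes, 23 averaged 1000 to 2000 CPM, 43 averaged 300 to 1000 CPM and 4 averaged 100 to 300 CPM, whereas 8 stayed under 10 CPM. Values are molecules counted at the 3′ end and were not divided by transcript length. The 70 genes above 50 CPM spanned 12.5-fold around a median of 846 CPM. The order of the genes was much the same in every mouse, with Spearman coefficients between pairs of mice of 0.933 to 0.984 across the 78 genes, which are not independent replicates. Neighbours in that order could rarely be separated: in only 1 of 77 neighbouring pairs did the ranges over the 4 mice not overlap. The 10 most abundant genes held 25.5% of the ribosomal protein UMIs.

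**Figure D1:**
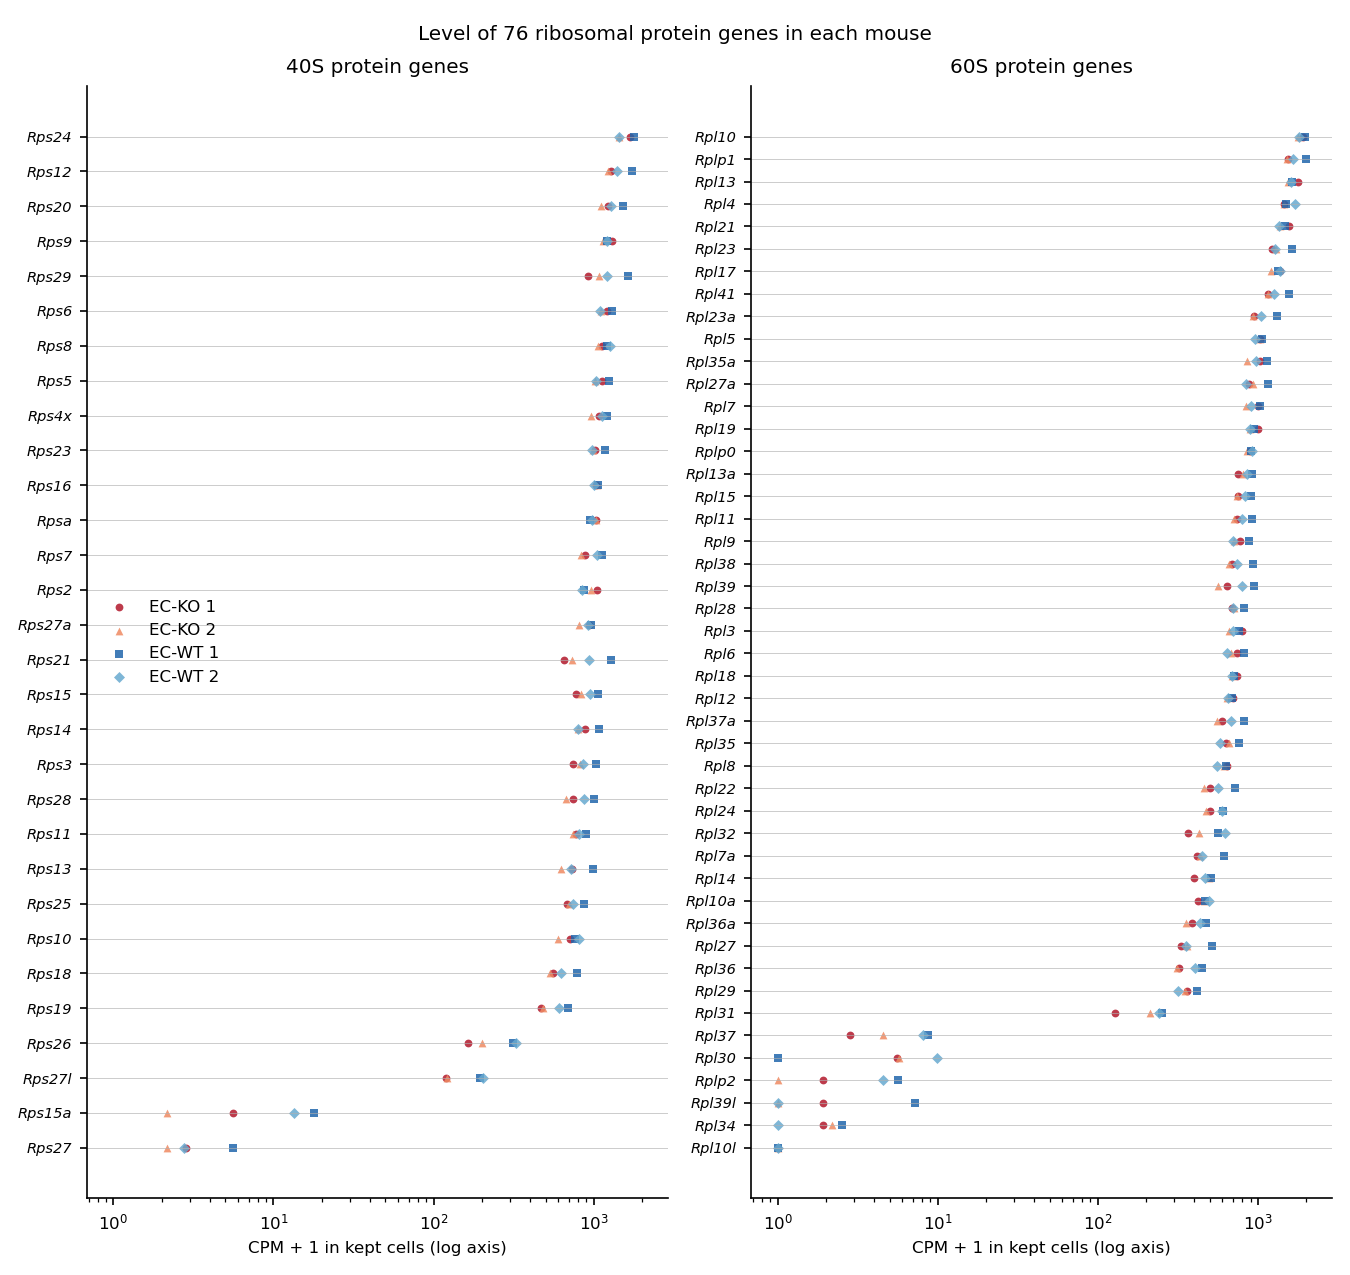
Level of 76 of the 78 ribosomal protein genes in each mouse, as CPM + 1 on a log axis, with 40S genes on the left and 60S genes on the right, each sorted by the mean and 1 symbol per mouse. The 8 genes under 10 CPM stand apart at the bottom, and above them neighbouring genes overlap in range.

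Among large subunit genes *Rpl10* (GRCm38 chrX:74270812-74273135, plus strand), whose protein joins last and shapes the peptidyl transferase centre, had 1903, 1778, 1975 and 1798 CPM (1864 ± 92.5). *Rpl13* averaged 1638 CPM, *Rpl4* 1525, *Rpl21* 1437, *Rpl23* 1356 and *Rpl17* 1323 CPM. *Rpl4* (1448 to 1698 CPM) overlapped *Rpl13* (1540 to 1772), but *Rpl17* (1209 to 1379) was below *Rpl13* in every mouse. *Rpl5* and *Rpl11*, which carry the 5S RNA into the large subunit and bind Mdm2 when they are free, were close to the middle. *Rpl5* had 1029, 1023, 1066 and 954 CPM and *Rpl11* had 742, 707, 915 and 791 CPM. *Rpl3*, which lies near the peptidyl transferase centre, had 793, 663, 764 and 694 CPM, and *Rpl13a*, known for repressing inflammatory mRNAs after its release from the ribosome, had 748, 801, 915 and 857 CPM. *Rpl38*, known from its role in translation of Hox mRNAs, had 686, 659, 925 and 738 CPM, and *Rpl22* had 501, 461, 718 and 564 CPM. The X-linked *Rpl36a* was lower, with 388, 356, 470 and 436 CPM.

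The stalk genes were split. *Rplp1* (1530, 1523, 1983 and 1643 CPM) was among the most abundant genes, and *Rplp0* (894, 853, 900 and 915 CPM), the base of the stalk, varied little, with a coefficient of variation between mice of 2.98%. *Rplp2*, whose protein pairs with that of *Rplp1*, had only 1, 0, 3 and 2 UMIs. A stretch of 65 bases in the 3′ end of *Rplp2* is identical in an annotated transcript of another protein-coding gene, *Wdr89*, which had 3, 1, 0 and 1 UMIs.

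Among small subunit genes *Rps24* (1683, 1432, 1786 and 1433 CPM) and *Rps12* (1286, 1232, 1740 and 1406 CPM) were the most abundant. *Rps6*, whose protein is the substrate of S6 kinase, had 1203, 1104, 1307 and 1099 CPM. *Rpsa*, also known as the laminin receptor, had 1027, 1036, 945 and 975 CPM, *Rps4x* had 1074, 966, 1202 and 1122 CPM, and *Rps3*, at the mRNA entry, had 744, 818, 1032 and 855 CPM. Of the proteins that join late in 40S assembly, *Rps14* had 878, 798, 1076 and 797 CPM and *Rps19* 468, 483, 686 and 609 CPM. *Rps26*, at the mRNA exit, was well below both, with 163, 200, 314 and 327 CPM.

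The 8 genes under 10 CPM had few or no UMIs in cells that held the other 70 in abundance. *Rps15a* had 5, 1, 11 and 7 UMIs, *Rpl37* 2, 3, 5 and 4, *Rpl30* 5, 4, 0 and 5, *Rps27* 2, 1, 3 and 1, and *Rpl34* 1, 1, 1 and 0. The remaining ones besides *Rplp2* were the paralogs *Rpl39l* (1, 0, 4 and 0 UMIs) and *Rpl10l*, both known from testis. *Rpl10l* was at 0 in all mice, which allows up to 2.76, 3.52, 4.62 and 5.30 CPM by the limit of 3 UMIs. Proteins such as those of *Rps15a*, *Rpl37*, *Rpl30*, *Rps27* and *Rpl34* are core parts of the ribosome, and these low counts were not read as absence of the mRNA. Near-identical copies of the last 300 transcript bases (at least 98% identity over at least 60 bases) were found for 46 of the 78 genes, 210 copies in all, and reads that match several places can be lost or moved in counting. *Rpl30* had 7 such copies, *Rpl34* and *Rps27* 2 each and *Rplp2* 1, but for *Rps15a* and *Rpl37* none was found, as for *Rpl39l* and *Rpl10l*. The search took 1 annotated transcript per gene. It had 5179 bases for *Rps15a* (390 coding) and 835 for *Rpl37* (291 coding), so that copies of other transcript ends could be missed. The part of such copies in the low counts was not tested.

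*Rps27* was the clearest case of a split between copies. The gene at chr3:90212522-90213651 (GRCm38, minus strand) had 7 UMIs in all, whereas its copy *Rps27rt* (chr9:114982366-114982739, minus strand, listed by the authors as *Gm9846*) had 155, 143, 201 and 102 UMIs (601 in all; 142, 168, 310 and 180 CPM). The coding sequences of 255 bases are identical in the 2 genes, with 0 differing bases, so that which of the genes made these mRNAs cannot be read from the counts. The paralog *Rps27l* (chr9:66946086-66949516, plus strand), a p53 target, differs from *Rps27* at 61 bases (76.1% identity) and had 118, 121, 193 and 201 CPM. The coding sequences are shown because they separate a copy that cannot be told apart from one that can. Capitals mark the bases of *Rps27l* that differ from *Rps27*.
Rps27 and Rps27rt: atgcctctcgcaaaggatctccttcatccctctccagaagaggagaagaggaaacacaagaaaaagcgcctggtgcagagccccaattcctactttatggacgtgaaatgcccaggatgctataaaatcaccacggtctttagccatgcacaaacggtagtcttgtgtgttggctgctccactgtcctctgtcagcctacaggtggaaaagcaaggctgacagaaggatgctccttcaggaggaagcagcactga
Rps27l: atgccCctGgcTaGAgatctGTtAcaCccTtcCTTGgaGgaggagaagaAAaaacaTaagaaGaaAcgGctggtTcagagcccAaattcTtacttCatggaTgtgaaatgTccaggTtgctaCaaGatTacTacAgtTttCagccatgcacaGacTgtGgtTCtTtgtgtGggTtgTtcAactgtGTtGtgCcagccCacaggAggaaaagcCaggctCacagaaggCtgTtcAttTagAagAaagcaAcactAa
Counting the 4 listed copies with their genes left the difference in share between the groups almost as it was (-0.77 against -0.76 percentage points, EC-KO minus EC-WT).

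Some genes varied more between mice than others. The median coefficient of variation of the 70 genes above 50 CPM was 11.4%, and 11 genes exceeded 20%, among them *Rps26* (32.6%), *Rps21* (31.8%), *Rps27l* (28.3%) and *Rpl31* (27.1%). *Rps16* was the steadiest (2.01%), with 1025, 1045, 1056 and 1009 CPM. On average 53.3% (*Rps27l*) to 98.4% (*Rpl10*) of a mouse's cells had a UMI of these genes (median 91.7%). After each cell was thinned to 1000 UMIs, the variance of the counts over their mean had a median of 1.19 (0.93 to 1.76), near the 1.15 of 1156 other genes of the same range of means. Of the 70 genes 2, *Rpl39* (1.76) and *Rpsa* (1.55), were above 1.5, as were 78 of the 1156 other genes.

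The number of sequencing reads per UMI differed widely between genes. *Rps26* had 1.91 reads per UMI and *Rpl31* 3.05, whereas *Rps6* had 25.3 and the median over the genes above 50 CPM was 8.91. The ribosomal protein genes together had 5.50, 10.3, 11.8 and 14.7 reads per UMI in the 4 mice, below the 10.4, 18.6, 19.3 and 22.4 of all other genes. The part of sequencing depth in the spread of *Rps26* between mice was not tested.

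RefSeq (GRCm38.p6) placed 69 start sites for 58 of the genes, and 20 genes had no match. In windows of 30 bases, from 10 before the start to the 20th from it, the pyrimidine motif CTTTC was found on the transcribed strand of 15 of 58 genes (25.9%), against 4.43% of 27025 genes with a RefSeq start. CTCTT was found for 12 genes (20.7%, against 4.60%). Both may overlap, and 20 genes (34.5%) had at least 1 of them, against 8.41%. On the opposite strand CTTTC was found for 3.45% of the genes (4.31% of all) and CTCTT for 0 (4.72% of all). Windows are shown 5′ to 3′ for genes that the comparisons below turn on and for a few genes with a match, with matches in capitals.
Rps21, chr2:180257369-180257398, plus strand: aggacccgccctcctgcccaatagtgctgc
Rpl39, chrX:37085203-37085232, minus strand: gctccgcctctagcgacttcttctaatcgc
Rps26, chr10:128626487-128626516, minus strand: gcaagccgccggatcCTCTTTCgagtcttg
Rpl14, chr9:120571507-120571536, plus strand: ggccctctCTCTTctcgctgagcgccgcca
Rplp0, chr5:115559457-115559486, plus strand: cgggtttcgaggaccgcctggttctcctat
Rps6, chr4:86857348-86857377, minus strand: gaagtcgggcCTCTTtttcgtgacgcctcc
Rpl35, chr2:39005112-39005141, minus strand: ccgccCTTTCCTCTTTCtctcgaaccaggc
Rpl38, chr11:114668570-114668599, plus strand: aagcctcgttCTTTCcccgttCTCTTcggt
*Rps21*, *Rpl39* and *Rplp0* had neither motif in these windows, which says only that these letters are not there. Counts of 3′ ends do not show which start was used.

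Cells were split at 4000 nuclear UMIs into 164 shallow (54, 23, 61 and 26) and 277 deep cells (103, 75, 53 and 46). In shallow cells the ribosomal protein genes took up a larger share of the UMIs: 7.44%, 6.59%, 8.56% and 7.33%, against 5.75%, 5.62%, 6.58% and 6.01% in deep cells of the same mice. The difference was 1.49 ± 0.44 percentage points (SD, n = 4) and had the same sign in all 4 mice. In finer bins the mean over mice was 7.18% from 1000 UMIs, 7.61% from 2000, 6.18% from 4000 and 5.90% from 8000 UMIs, so that the share fell mainly across 4000 UMIs. EC-KO 2 departed from this at the lowest depth, with 5.30% in 9 cells of 1000 to 2000 UMIs. Counting depth without the ribosomal protein UMIs gave a difference of 1.58 points.

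**Figure D2:**
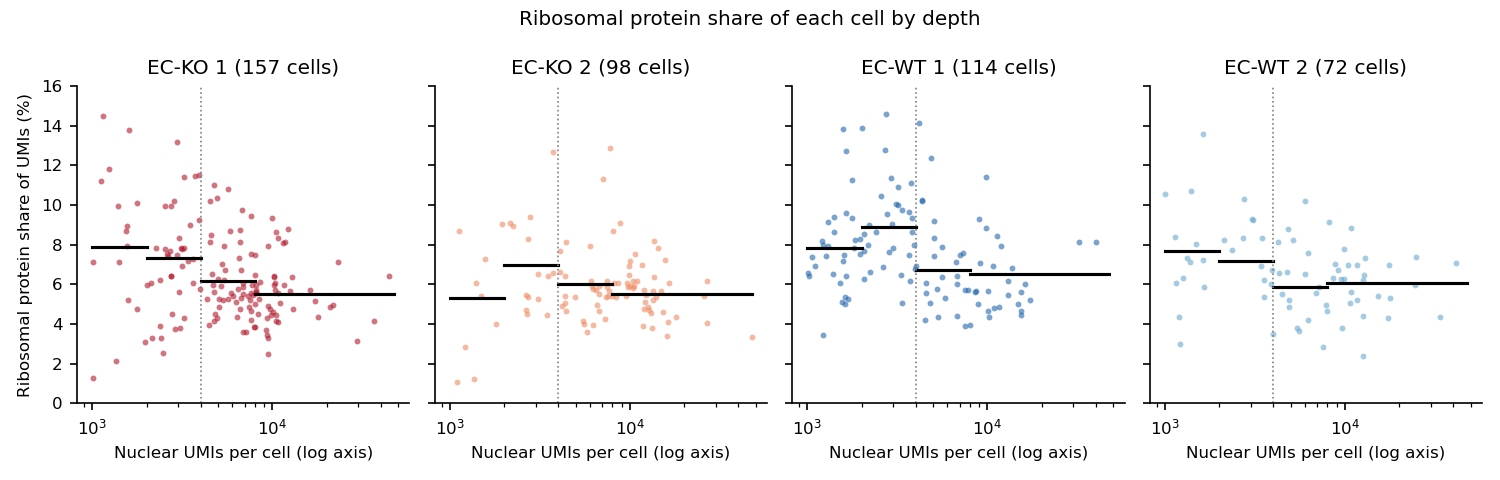
Ribosomal protein share of nuclear UMIs (percent) of each kept cell against its nuclear UMIs (log axis), 1 panel per mouse. Black lines give the share of the summed UMIs in bins from 1000, 2000, 4000 and 8000 UMIs and the dotted line the split at 4000, and in each mouse the 2 bins above 4000 UMIs lie between 5.49% and 6.71%.

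Gene by gene, 63 of the 70 genes tested were higher in shallow cells by the fitted log2 fold change, with a median of 0.31 against -0.01 over all 5468 genes tested. With a split at 2000 UMIs the median was -0.038, against -0.24 over all genes. At an adjusted p under 0.05 (edgeR quasi-likelihood test with the mouse as a block, Benjamini-Hochberg adjustment) 3 rose in shallow cells and 0 fell, while over all genes 0.0914% rose and 0.0914% fell. At an unadjusted p under 0.05 37 were higher (4.21% of all genes) and 0 lower (4.32%). In CPM, 38 genes were higher in shallow cells of all 4 mice (8.19% of all genes), and 1, *Rpl29*, was lower in all 4 (8.91%).

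The largest change was that of *Rps21* (chr2:180257377-180258445, plus strand), which encodes a small protein of the 40S subunit. It had 863, 1219, 2260 and 1972 CPM in shallow cells and 616, 696, 1029 and 819 CPM in deep cells. It was higher in shallow cells of all 4 mice, and most in the EC-WT mice. The log2 fold change was 0.91 (SE 0.14, adjusted p = 5.5e-05, edgeR quasi-likelihood test).

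*Rps29* (chr12:69157722-69159186, minus strand), a zinc-binding 40S protein gene, had 1331, 1514, 2172 and 1989 CPM in shallow and 863, 1053, 1484 and 1117 CPM in deep cells. It was higher in all 4 mice, by 0.61 on the log2 scale (SE 0.13, adjusted p = 0.013, edgeR quasi-likelihood test). *Rpl39* (chrX:37082520-37085402, minus strand), whose protein lines the exit tunnel, had 960, 517, 1419 and 1685 CPM in shallow and 597, 567, 822 and 689 CPM in deep cells. It was higher in 3 of 4 mice but not in EC-KO 2, and its log2 fold change was 0.68 (SE 0.15, adjusted p = 0.029, edgeR quasi-likelihood test). *Rps29* has 3 and *Rpl39* 2 near-identical copies that were not listed in the tables, and *Rps21* has none.

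These calls depended on the fit. In the settings that lost a call but kept its direction, the log2 fold change of *Rps21* was 0.72 to 1.16 (4 settings). It was 0.25 to 0.98 for *Rps29* (9 settings) and 0.50 to 0.90 for *Rpl39* (10 settings). *Rps21* rose with DESeq2 (adjusted p = 0.0057) and without each mouse in turn (edgeR adjusted p from 4.2e-05 to 0.0098), but did not pass with all cells thinned to 1000 UMIs (0.061), with read counts (0.70), with a split at 2000 UMIs (0.34) or without the mouse block (0.20). *Rps29* and *Rpl39* also lost their call with DESeq2 (adjusted p = 0.38 and 0.52) and without EC-KO 1, EC-WT 1 or EC-WT 2 (*Rps29* 0.37, 0.085 and 0.055, *Rpl39* 0.48, 0.24 and 0.28). Without EC-KO 2 6 genes rose, among them *Rpl22*, *Rpl23a* and *Rps23*, and with depth counted without the ribosomal protein UMIs 14 rose. The shares of all genes called in these fits are not given here, so that a general rise in calls cannot be told apart. Scaled to the ERCC spike-ins, which reads the amount per well, all 70 genes fell in shallow cells, with a median of -1.28 against -1.61 over all genes, so that the rise is one relative to the other mRNAs of the same cells.

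Genes with other roles showed smaller differences that did not pass the test in the main fit. The log2 fold change was 0.48 for *Rpl11* (SE 0.14), 0.48 for *Rpl38* (SE 0.14), 0.56 for *Rpl22* (SE 0.16) and 0.37 for *Rplp1* (SE 0.12). These genes passed with depth counted without the ribosomal protein UMIs (adjusted p = 0.010 to 0.025, edgeR quasi-likelihood test). *Rpl11*, *Rpl38* and *Rpl22* also passed with a split at 6000 UMIs. In the main fit the log2 fold change was near 0 for *Rps6* (0.0063, SE 0.13), *Rpsa* (0.019, SE 0.14) and *Rplp0* (-0.091, SE 0.14). Of the 7 genes below 0, *Rpl29* had the lowest value (-0.35, SE 0.20, adjusted p = 0.67, edgeR quasi-likelihood test), with 327, 351, 234 and 303 CPM in shallow against 364, 351, 461 and 318 CPM in deep cells. *Rps2*, with 1250, 812, 717 and 556 CPM against 1014, 970, 916 and 872 CPM, was lower in 3 of 4 mice (-0.23, SE 0.15, adjusted p = 0.77), as was *Rpl19* (-0.11, SE 0.15, adjusted p = 0.92, edgeR quasi-likelihood test), with 1250, 868, 739 and 725 against 959, 896, 992 and 916 CPM. Neither value was stable: with a mouse left out *Rps2* ran from -0.45 (without EC-KO 1) to -0.086 (without EC-WT 2) and *Rpl19* from -0.32 (without EC-KO 1) to 0.034 (without EC-WT 1), and *Rpl19* was at 0.029 with read counts.

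**Figure D3:**
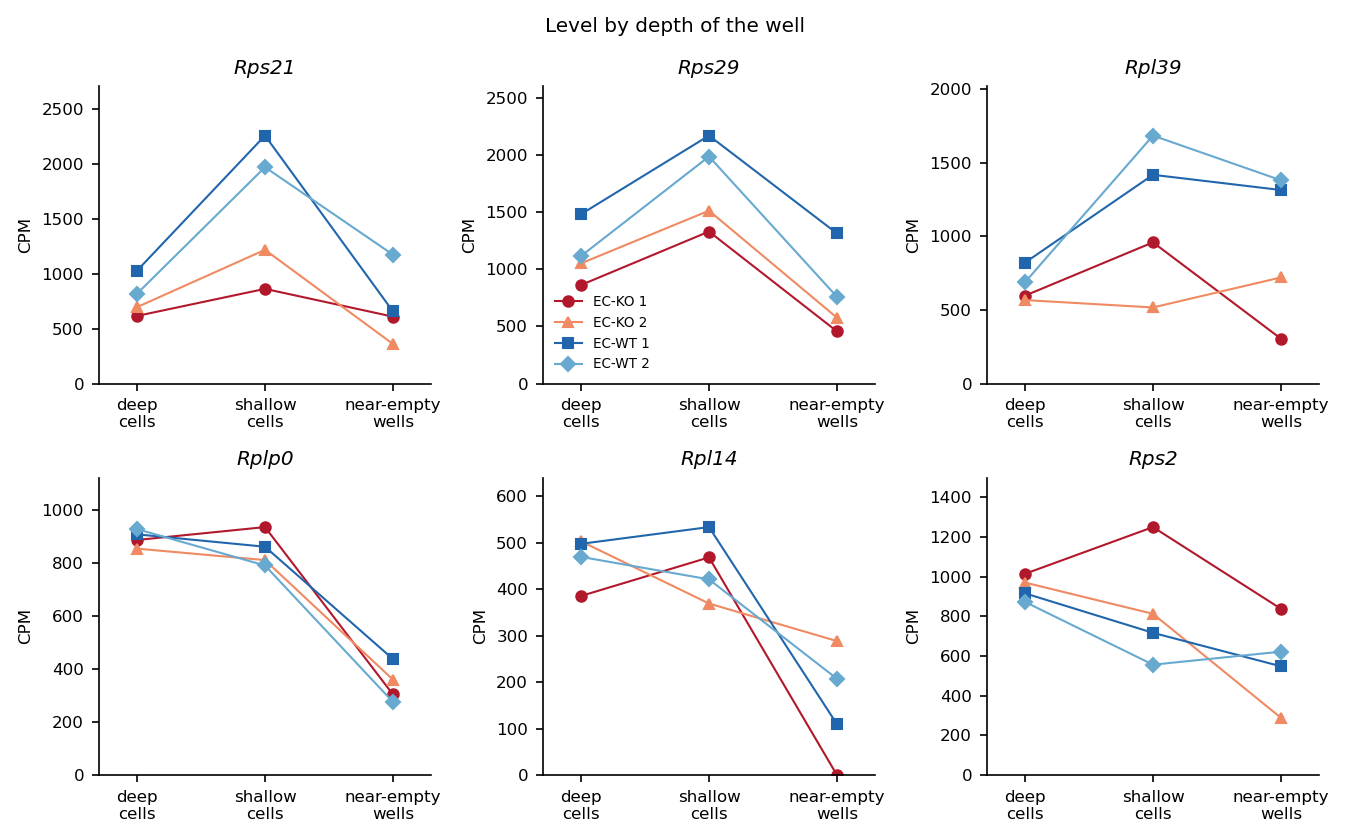
CPM of 6 ribosomal protein genes in deep cells, shallow cells and near-empty wells, with 1 line and symbol per mouse. *Rps21* and *Rps29* are higher in shallow than in deep cells of all 4 mice, while *Rplp0* is lowest in near-empty wells, where it rests on 4 or 5 UMIs per mouse.

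Other measures also moved with depth. The share of *Rn45s*, the ribosomal RNA precursor, was 7.87%, 3.84%, 4.89% and 4.28% in deep and 2.57%, 1.75%, 0.75% and 0.83% in shallow cells. With *Rn45s* left out of the totals the difference in ribosomal protein share was 1.27 points and the same 3 genes rose. The smooth muscle list, none of its genes at 0, summed to 6144, 1736, 3912 and 2157 CPM in shallow and 4714, 7135, 189 and 1214 CPM in deep cells. Without the smooth muscle-like cells the difference was 1.44 points and the same 3 genes rose.

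The genes differed by coding length, which the choice of the genes did not use. Across the 70 genes the log2 fold change of shallow over deep cells had a Spearman coefficient of -0.71 with the coding length in GENCODE M21, and across 5107 other genes of -0.19. Within each mouse the coefficient of the 70 genes was -0.44, -0.40, -0.55 and -0.47. The points share their libraries, so that this is a description. All 8 genes with coding sequences under 300 bases (*Rpl41*, *Rpl39*, *Rps29*, *Rps28*, *Rpl38*, *Rps21*, *Rps27l* and *Rpl37a*) were above 0, with a median of 0.50, and held the 3 genes that rose. The median was 0.38 for the 41 genes of 300 to 600 bases and 0.12 for the 21 longer ones. The coefficient was -0.63 with cells thinned to 1000 UMIs (68 genes), -0.72 with ERCC scaling and -0.42 with transcript length in place of coding length.

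**Figure D4:**
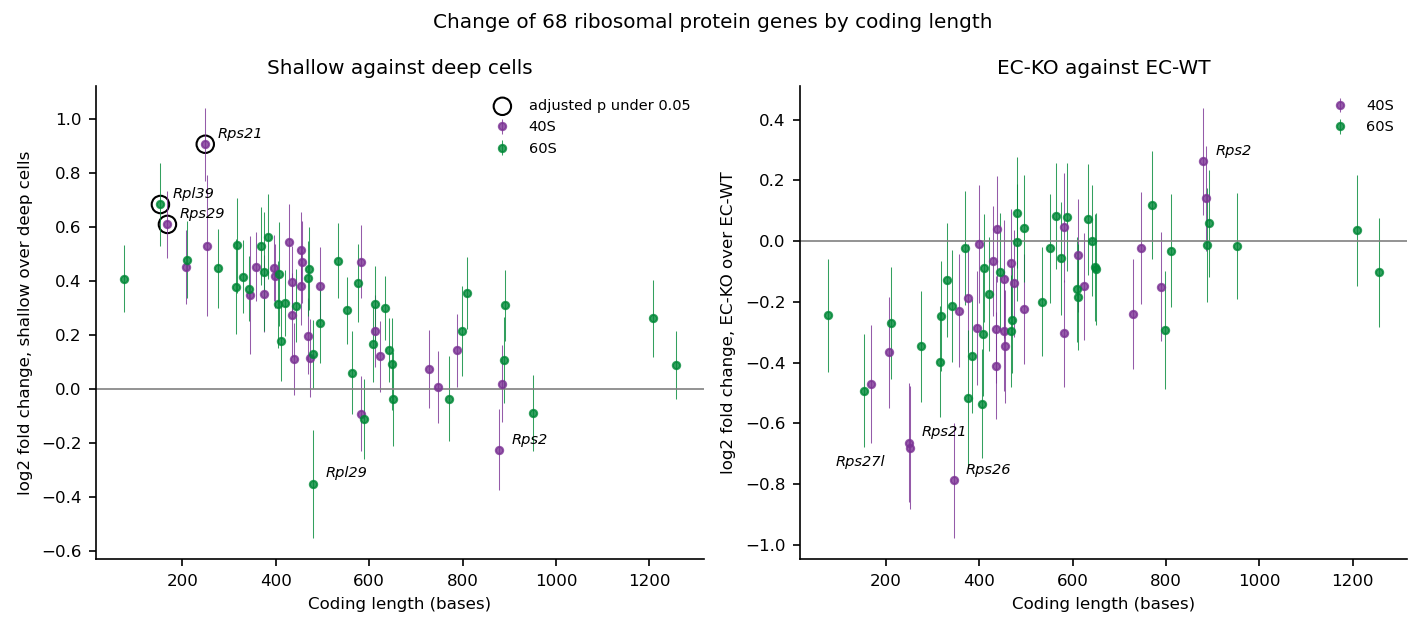
Log2 fold change (± SE) of 68 of the 70 ribosomal protein genes tested against its coding length in bases, for shallow over deep cells (left) and EC-KO over EC-WT (right), with 40S genes in purple and 60S genes in green. Circles mark *Rps21*, *Rps29* and *Rpl39*, which rose at an adjusted p under 0.05, and short genes lie above 0 on the left and below 0 on the right.

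The 917 wells with under 200 nuclear UMIs held too few UMIs to count as cells. The ribosomal protein genes held 3.88%, 4.81%, 6.42% and 5.56% of their UMIs, below the kept cells of the same mouse each time, by 1.03 ± 0.71 percentage points (SD, n = 4). With read counts the difference had the opposite sign (0.26 points higher in near-empty wells). A well had a median of 2 ribosomal protein UMIs, and all such wells together 2567, so that single genes rest on few molecules. *Rplp0* had 305, 361, 438 and 276 CPM from 4, 5, 4 and 4 UMIs, against 894, 853, 900 and 915 CPM in kept cells. *Rpl3* had 381, 361, 438 and 345 CPM from 5, 5, 4 and 5 UMIs, and *Rpl8* 152, 361, 329 and 276 CPM from 2, 5, 3 and 4 UMIs. Both were below the kept cells in every mouse.

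In the edgeR quasi-likelihood test with the mouse as a block 26 of the 70 genes fell in near-empty wells and 0 rose, against 1.8% and 0.251% of 4785 genes (2.05% in either direction). At an unadjusted p under 0.05 54 were lower (12.8% of all genes) and 0 higher (1.23%), and DESeq2 called 0 higher. Their median log2 fold change was -0.88, but the median of all genes was also below 0 (-0.54). *Rplp0* fell by 1.87 (SE 0.34, adjusted p = 2.8e-05), *Rpl14* by 2.03 (SE 0.48, adjusted p = 0.0044, with 0, 4, 1 and 3 UMIs) and *Rpl32* by 1.66 (SE 0.43, adjusted p = 0.013, with 0, 5, 2 and 4 UMIs). *Rpl8* fell by 1.60 (adjusted p = 0.0058) and *Rpl3* by 1.41 (adjusted p = 0.0066). *Rplp0* and *Rpl3* passed with each mouse left out, whereas *Rpl14* (adjusted p = 0.066) and *Rpl8* (0.086) did not pass without EC-KO 1 and *Rpl32* not without EC-KO 1 (0.13), EC-WT 1 (0.056) or EC-WT 2 (0.059). The count moved with the fit: without TMM factors 1 gene fell (medians -0.43 and -0.08), and with DESeq2 0. It was 8, 14, 16 and 24 without EC-KO 1, EC-KO 2, EC-WT 1 and EC-WT 2. For these fits, too, the shares of all genes called are not given here.

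*Rps15*, which sits at the decoding centre, was the only one of the 70 above 0, with 838, 1154, 1973 and 1313 CPM (11 to 19 UMIs) against 770, 830, 1057 and 947 CPM in kept cells. Its CPM was higher in near-empty wells of all 4 mice (5.16% of all genes), but the fitted log2 fold change was 0.03 (SE 0.24, adjusted p = 0.97), and it was below 0 without EC-WT 1 (-0.075), without EC-WT 2 (-0.056) and under 3 other settings.

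No ribosomal protein gene passed the test between the groups. Of the 70 genes tested 0 were called (edgeR quasi-likelihood test, Benjamini-Hochberg adjusted p under 0.05), against 0.239% of 8385 genes (0.227% higher in EC-KO and 0.0119% lower), and DESeq2 also called 0. At an unadjusted p under 0.05 10 were lower in EC-KO (2.85% of all genes) and 0 higher (3.89%). The share of UMIs was 5.96% and 5.68% in EC-KO and 7.0% and 6.15% in EC-WT, a difference of -0.76 percentage points with a pooled SD of 0.45 (n = 2 mice per group). Without EC-WT 1 it was -0.33 points, and with the cells of each mouse weighted to the same depth bins -0.69. The pooled SD includes EC-WT 1 (SD 0.60 in EC-WT and 0.20 in EC-KO), so that it is no measure for the difference without that mouse. The median log2 fold change was -0.15 against -0.01 over all genes, and 57 of 70 genes were below 0 (81.4%, all genes 50.6%). The CPM of the 2 EC-KO mice lay below that of both EC-WT mice for 37 genes (20.7% of all genes) and above it for 2, *Rps2* and *Rpsa* (15.7%). Without EC-WT 1 the median was -0.04, without EC-WT 2 it was -0.27, in shallow cells alone -0.04 and in deep cells alone -0.14. The mean share of UMIs was nevertheless lower in EC-KO at both depths. It was 7.01% against 7.94% in EC-WT in shallow cells and 5.68% against 6.30% in deep cells. Scaled to the ERCC spike-ins the median log2 fold change was 0.04 against 0.19 over all genes.

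Among the genes farthest below 0 were *Rps26* (chr10:128624534-128626747, minus strand) and *Rps27l*, both low in level among the 40S genes. *Rps26* had 163 and 200 CPM in EC-KO against 314 and 327 in EC-WT (178, 170, 204 and 185 UMIs), and the groups did not overlap. Its log2 fold change was -0.79 (SE 0.19, adjusted p = 0.17, edgeR quasi-likelihood test). *Rps27l* had 118 and 121 against 193 and 201 CPM, also without overlap (-0.68, SE 0.20, adjusted p = 0.34, edgeR quasi-likelihood test). *Rps26* passed without a filter on low counts (-0.78, adjusted p = 0.039), did not pass with any mouse left out (adjusted p = 0.053 at the lowest), and in shallow cells alone its log2 fold change was 0.0063. *Rps21*, with 647 and 730 against 1288 and 940 CPM, had a log2 fold change of -0.66 (SE 0.19, adjusted p = 0.33), and without EC-WT 2 it passed (-0.89, adjusted p = 0.0023). *Rps26* had few reads per UMI, as given above. EC-KO 1 had the fewest reads per UMI of the mice, and the part of sequencing depth in these values was not tested.

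**Figure D5:**
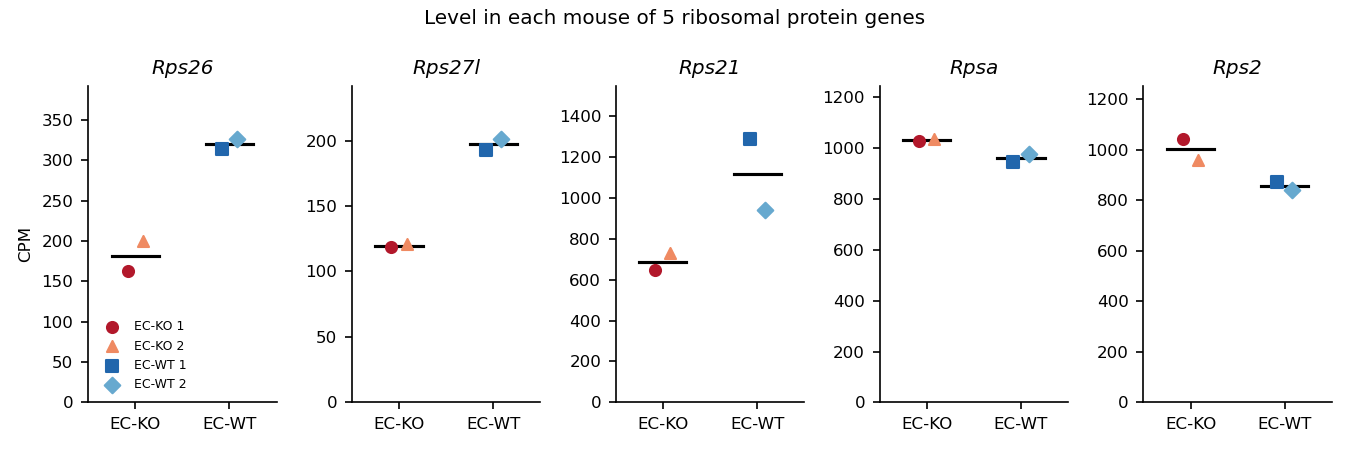
CPM of 5 ribosomal protein genes in each mouse by group, with bars at the group mean and axes from 0. The mice of EC-KO lie below those of EC-WT for *Rps26*, *Rps27l* and *Rps21* and above them for *Rpsa* and *Rps2*, and none of the 5 passed the test.

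The genes above 0 were close to it. *Rps2* had 1043 and 960 CPM in EC-KO against 874 and 839 CPM in EC-WT (0.26, SE 0.18, adjusted p = 0.85, edgeR quasi-likelihood test), *Rpsa* 1027 and 1036 against 945 and 975 CPM (0.14, SE 0.17, adjusted p = 0.93) and *Rpl8* 644 and 614 against 632 and 556 CPM (0.12, SE 0.18, adjusted p = 0.95). With read counts *Rpsa* was at -0.03 and *Rpl8* at -0.25, and with a mouse left out *Rpl8* ran from 0.0071 (without EC-WT 2) to 0.23 (without EC-WT 1). The 29 genes of the 40S subunit had a median of -0.23, with 4 above 0, and the 41 of the 60S subunit a median of -0.10, with 9 above 0. *Rplp0* had 894 and 853 against 900 and 915 CPM.

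The short genes were again on one side. The Spearman coefficient of the log2 fold change of EC-KO over EC-WT with coding length was 0.64 across the 70 genes and 0.10 across 7780 others, again not matched in level or length. Across the 70 genes it was 0.53 in shallow cells alone, 0.58 in deep cells alone and 0.48 without EC-WT 1. All 8 genes under 300 bases were below 0 (median -0.42, 4 at an unadjusted p under 0.05), against medians of -0.19 for the 41 of 300 to 600 bases and -0.03 for the 21 longer ones. This comparison and that of depth use the same cells, and EC-WT 1 had the highest share of shallow cells (61 of 114). The smooth muscle list given above moved with the groups, and 6 of its 10 genes tested rose in EC-KO. Without the smooth muscle-like cells the difference in ribosomal protein share was -0.61 points and the median log2 fold change -0.11. These cells themselves had shares of 5.24%, 3.85%, 8.96% and 5.50%, from 11, 5, 3 and 2 cells.

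A further comparison asked whether the effect of depth differed between the groups. The interaction of group and depth was called for 0 of 70 genes (edgeR quasi-likelihood test, 0.219% of 5468 genes, 0.201% larger and 0.0183% smaller in EC-KO), as it was with DESeq2, and 7 genes had an unadjusted p under 0.05 (6 larger in EC-KO and 1 smaller, against 2.76% and 2.19% of all genes). The values ran from -0.60 for *Rpl39* (SE 0.28, adjusted p = 0.90) to 0.90 for *Rps26* (SE 0.41, adjusted p = 0.90). For *Rps21* the interaction was -0.49 (SE 0.25, adjusted p = 0.98). On simulated data this fit recovered 0 of 200 genes changed by 0.5 on the log2 scale, 5 of 200 at 1 and 139 of 200 at 2. With 2 mice per group the test thus had little power for changes of 1 or less. The missing calls do not show that depth acted alike in both groups.

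Some ribosomal components have symbols that the rule leaves out. *Fau*, whose product is cut to yield eS30, had 638, 637, 906 and 696 CPM, and *Gnb2l1* (Rack1), a scaffold on the 40S subunit, had 654, 654, 661 and 565 CPM. Of 5 such genes tested all were above 0 in shallow against deep cells (median 0.37) and 4 were below 0 in EC-KO (median -0.27), and 0 were called in either comparison. The paralog *Rpl22l1* had 1, 0, 1 and 1 UMIs. A list of 15 other genes of the TOP class held translation factors and genes of other kinds, such as the noncoding *Gas5*. Among them were *Eef1a1* (3514, 3787, 4074 and 3646 CPM) and *Tpt1* (4303, 4021, 4592 and 3616 CPM). Of the 15, 0 were called between shallow and deep cells (median 0.05) or between the groups (median 0.02). In near-empty wells the median of the 15 was -0.57, near the -0.54 of all genes, and 3 of them fell (1.8% of all genes): *Eef1a1* by 1.07 (adjusted p = 1.4e-05), *Eef2* by 1.21 (0.0022) and *Tpt1* by 0.57 (0.048, edgeR quasi-likelihood test). Of 24 ribosome biogenesis genes tested 0 passed the test between the groups (edgeR, 1 at an unadjusted p under 0.05), with a median of -0.23 against -0.01 over all genes and 19 below 0. Nor did any of 11 regulators of TOP translation such as *Mtor* and *Larp1* (median 0.03). The 76 genes of the mitochondrial ribosome had a median of -0.13 between the groups, and the 42 of them tested by depth a median of 0.15, and 0 were called in either.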

How the data were processed

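SORT-seq libraries of 4 mice were analysed, each a plate of 384 wells. For each plate there were 3 deposited tables, with a row per gene. The authors gave UMI counts, read counts that include PCR duplicates, and estimated counts of transcripts, which correct the UMI counts for the saturation of 4096 identifiers. The submitters' processing notes name BWA 0.7.15, Seurat, GRCm38 and mm10. The annotation used for counting and the handling of reads with several matches are not given in the sources used here. None of the deposited counts were normalized.

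UMI counts of kept wells were summed per mouse and compared with edgeR 4.0.16 in R 4.3.3 (TMM factors, filterByExpr, glmQLFit and glmQLFTest, Benjamini-Hochberg adjustment over all genes tested, called under 0.05). Comparisons by depth and with near-empty wells had the mouse as a block. All 70 members above 50 CPM passed the filter and the other 8 did not. DESeq2 1.42.0 was an alternative, with other scalings, filters, counts, well limits and samples left out. The fits were tested on simulated data. Fitted with a mouse left out, the lone mouse of a group is assumed to vary like the others. P-values between the groups rest on the spread between the mice and plates within a group (n = 2 mice per group). With the mouse as a block they rest on how alike the difference within a mouse was across the 4 mice. CPM is per 1000000 nuclear UMIs. Intervals (95%, Wilson) and floors (3 UMIs) cover counting error only. Copies were found with BLAST 2.17.0 against GENCODE M21 transcripts of GRCm38, which also gave positions and coding lengths. Smooth muscle-like cells are those with at least 1% of UMIs on the smooth muscle list (5 cells lay within 0.5 points of that limit), and no doublet caller was run.

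The genes, the lists and the comparisons were chosen with earlier results of these data known. Named with values were the 10 highest and 5 lowest genes, in each comparison the called genes with the largest changes that went one way in all mice (5 each way) or, where fewer were called, the 3 largest changes each way whether or not all mice agreed, and genes fixed by role. Other genes were named after their values were seen. A few genes of the lists are counted but not reported by name here.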

Additional observations from a re-analysis of the deposited data

Results flagged for a closer look

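*Rpl29*, a 60S protein gene, had 1 mouse apart from the others in the comparison of shallow with deep cells. The log2 ratio of its CPM was -0.15 in EC-KO 1, -0.0022 in EC-KO 2 and -0.067 in EC-WT 2, but -0.98 in EC-WT 1, a gap of 0.847 of the whole range, above Dixon's 95% critical value for 4 samples. It was the only one flagged of 12 such tests, and chance flags about 1 group in 20. *Rpl29* has 9 near-identical copies, and its part in this value was not tested.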

How the results depend on the processing

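Between EC-KO and EC-WT, 0 members were called higher under any of the alternatives. Members lower in EC-KO numbered 0 except without a filter on low counts (2, *Rps26* among them), and 0 to 1 without each mouse. Their median log2 fold change moved from -0.15 to 0.041 with ERCC totals, -0.41 with read counts, -0.039 in shallow cells only and -0.31 for EC-KO 2 against EC-WT 1, which share a flow cell, and ranged from -0.27 to -0.043 without each mouse. With read counts *Rpsa* (-0.029) and *Rpl8* (-0.25) reversed, as did *Rps26* in shallow cells only (0.0063). With the replicate number as a block 0 members were called and the median was -0.15. The replicate numbers share no litter or batch in the labels, and the differences between replicates 1 and 2 of the groups correlated at -0.055 over 8385 genes.

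Members higher in shallow cells numbered 3, against 0 with ERCC totals, read counts, cells thinned to 1000 UMIs, a split at 2000 UMIs or no mouse block, 1 with DESeq2 or no filter on low counts, 11 with a split at 6000 UMIs, 14 with depth counted without members, and 1 to 6 without each mouse. With ERCC totals 70 members were lower, *Rps21* (-0.68), *Rps29* (-0.98) and *Rpl39* (-0.92) reversed and the median was -1.28, but shallow cells are defined by few UMIs per well, and the median over all genes was -1.61 with this scaling. The median was 0.13 with no filter, 0.50 with read counts and -0.038 with a split at 2000 UMIs (-0.24 over all genes), and 0.29 to 0.33 without each mouse. *Rpl29* (0.097) and *Rpl19* (0.029) reversed with read counts and *Rpl19* without EC-WT 1 (0.034, with -0.32 as the lowest value without a mouse).

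Members lower in near-empty wells numbered 26, against 1 without TMM, 0 with DESeq2, 45 with no filter, 40 in wells under 100 UMIs, 44 in plate rows L to P and 8 to 24 without each mouse. *Rps15* reversed with no filter (-0.33), under 100 UMIs (-0.50), in rows L to P (-0.18), without EC-WT 1 (-0.075) and without EC-WT 2 (-0.056), and was at most 0.11 without a mouse. The difference in share reversed with read counts (0.26 points) and was -1.18 to -0.68 without each mouse. The other 2 differences in share kept their sign under all alternatives (-1.18 to -0.33 and 1.33 to 1.66 points without each mouse). The cause of these changes was not tested. The shares of all genes called under the alternatives are not given here, so that the counts describe the members only. With 2 mice per group, and few UMIs per gene in near-empty wells, small differences were not detectable at this depth.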
